A study of Homo sapiens with 10 samples.

Results

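The cytosolic heat shock genes described here are 10 genes, HSF1, HSPA1A, HSPA1B, HSPA8, HSPH1, DNAJB1, HSP90AA1, HSP90AB1, HSPB1 and BAG3, taken by gene name from the 58302 genes of the deposited table. All 10 were found once each and all 10 passed the filter on low values that left 20466 genes for testing. They were measured in RNA of KYSE-410 and KYSE-30, established human lines of esophageal squamous cell carcinoma, collected 48 h after an siRNA (a short RNA that lowers its target messenger RNA) was introduced. The groups were KYSE-410 with siSHIP2 (3 libraries), KYSE-410 with siCT (3), KYSE-30 with siSHIP2 (2) and KYSE-30 with siCT (2). siSHIP2 targets INPPL1, which encodes the lipid phosphatase SHIP2, and siCT is a non-targeting control siRNA. Every group was transfected, and no untransfected or heat-treated group was analysed here. A further siRNA against INPPL1 that the study used in KYSE-410 was not analysed here, so effects of losing SHIP2 and other effects of that sequence cannot be told apart here. Nothing in the labels tells whether replicates came from separate cultures. The p-values therefore cover the spread among these libraries alone, which may be technical. In such bulk RNA, fewer cells of one kind and less RNA per cell cannot be told apart.

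Heat shock proteins are chaperones that hold, fold or refold other proteins. HSF1 is the transcription factor that raises their genes in heat or other protein damage, and free HSP70 and HSP90 hold HSF1 inactive. HSP70 proteins (HSPA1A and HSPA1B, the stress-inducible forms, and HSPA8, the constitutive form HSC70) bind unfolded stretches of client proteins. DNAJB1, a J-domain protein of the HSP40 family, brings clients to them, while HSPH1 (HSP110) and BAG3 exchange their nucleotide. HSP90AA1 and HSP90AB1 encode the inducible and the constitutive cytosolic HSP90, which mature kinases and receptors. HSPB1 (HSP27) is a small heat shock protein that keeps damaged proteins soluble, and BAG3 links small heat shock proteins and HSP70 to autophagy.

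HSF1 binds heat shock elements, repeats of the letters GAA and TTC in alternating direction. The promoters of the members are shown because many of them are known targets of the same factor. The 250 bases before the RefSeq gene start were searched in RefSeq's promoters (GRCh38.p14), which matched 9 of the 10 members, for the short forms GAANNTTC and TTCNNGAA, which have 2 units. They were also searched for long forms of 3 units, in which a short form goes on with NN and one more unit in the alternating direction, so that each long form overlaps both short forms. The short forms read the same on both strands, and the long forms are each other's reverse complement. Of the 9 promoters, 4 held such letters, those of HSPA1A, HSPA1B, HSPA8 and HSPB1. Among all 35116 promoters, 11.6% held either short form and 0.441% held either long form. HSPA8 held both long forms, from 230 to 218 and from 55 to 43 bases before the RefSeq start, in a stretch that GENCODE 29 counts as exon, so those elements are given alone. The promoters of HSPH1, DNAJB1, HSP90AA1, HSP90AB1 and BAG3 held none of these letters in this window. The search allowed no mismatch, so elements with imperfect units would not have been found. All 250 bases of the DNAJB1 window, as of the HSPA8 window, lie in exons of GENCODE 29. The bases before the GENCODE 29 start of DNAJB1 were therefore not searched. Capitals mark the elements, the strand is that of the gene, and bases that GENCODE 29 places in an exon of the gene are left out.
HSPA1A, chr6:31815293-31815463, plus strand: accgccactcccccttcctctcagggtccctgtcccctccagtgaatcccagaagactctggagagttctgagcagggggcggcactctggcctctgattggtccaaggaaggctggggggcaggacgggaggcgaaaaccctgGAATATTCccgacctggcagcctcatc
HSPA1B, chr6:31827488-31827734, plus strand: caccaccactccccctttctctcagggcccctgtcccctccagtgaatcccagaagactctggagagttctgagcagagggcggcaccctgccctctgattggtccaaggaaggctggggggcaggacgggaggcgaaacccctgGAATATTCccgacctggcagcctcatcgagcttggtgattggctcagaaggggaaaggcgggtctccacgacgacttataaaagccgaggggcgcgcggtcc
HSPB1, chr7:76302423-76302543, plus strand: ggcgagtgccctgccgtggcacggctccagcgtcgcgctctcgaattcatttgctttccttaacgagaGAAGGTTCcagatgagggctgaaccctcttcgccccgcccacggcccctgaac
HSPA8, chr11:123062354-123062366, minus strand: GAAAGTTCCAGAA
HSPA8, chr11:123062179-123062191, minus strand: TTCTGGAAGGTTC
The elements of HSPA1A and HSPA1B have the same letters and lie 106 to 99 and 105 to 98 bases before their RefSeq starts, or 27 to 20 and 102 to 95 bases before the starts in GENCODE 29. The element of HSPB1 lies 182 to 175 bases before its RefSeq start, or 53 to 46 bases before its start in GENCODE 29. Those of HSPA8 lie inside its gene in GENCODE 29, at -864 to -876 and -1039 to -1051 on this count, where a minus marks bases past the start.

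The table gives CPM, the counts of a gene scaled to the total of its library, and each library had values above 0 for 26636 to 28623 genes. The lowest value above 0 was 0.05 or 0.1 CPM in each library, so members at 89.5 to 3300.3 CPM lay far above it. The number of reads per library is not given in the sources used here. INPPL1, the target, stood at 40.4 ± 3.89 CPM with siSHIP2 and 108 ± 1.16 CPM with siCT in KYSE-410 (SD, n = 3 each), and at 23.9 ± 0.93 and 38.0 ± 2.61 CPM in KYSE-30 (SD, n = 2 each). Of 8 squamous markers, 7 were at or above 1 CPM in KYSE-410, where KRT14 was below it, and 6 in KYSE-30, where KRT5 and KRT17 were below it. All 5 immune markers were below 1 CPM in each group, with a summed level of 0.2 to 0.55 CPM per library. In KYSE-410, the summed level of the squamous markers was 437 to 494 CPM with siSHIP2 and 515 to 543 CPM with siCT, and that of 5 fibroblast markers was 92.1 to 98.3 CPM with siSHIP2 and 106 to 128 CPM with siCT, with COL1A2 and PDGFRB below 1 CPM in each group. The 5 glandular markers summed there to 3.95 to 4.4 CPM with siSHIP2 and 7.05 to 9.45 CPM with siCT, with CDX2, MUC2 and TFF3 below 1 CPM. The 3 endothelial markers, each below 1 CPM in KYSE-410, summed to 0.75 to 1.05 CPM with siSHIP2 and 0.9 to 1.25 CPM with siCT, which overlapped. In KYSE-30 they summed to 3.05 to 3.5 CPM with siSHIP2 and 4.1 to 6.94 CPM with siCT, without overlap. The squamous, fibroblast and glandular sums of KYSE-30 overlapped between the siRNA groups. In KYSE-410 the squamous, fibroblast and glandular sums move with the siRNA as several members do, and their part in those results was not tested.

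**Figure D1:**
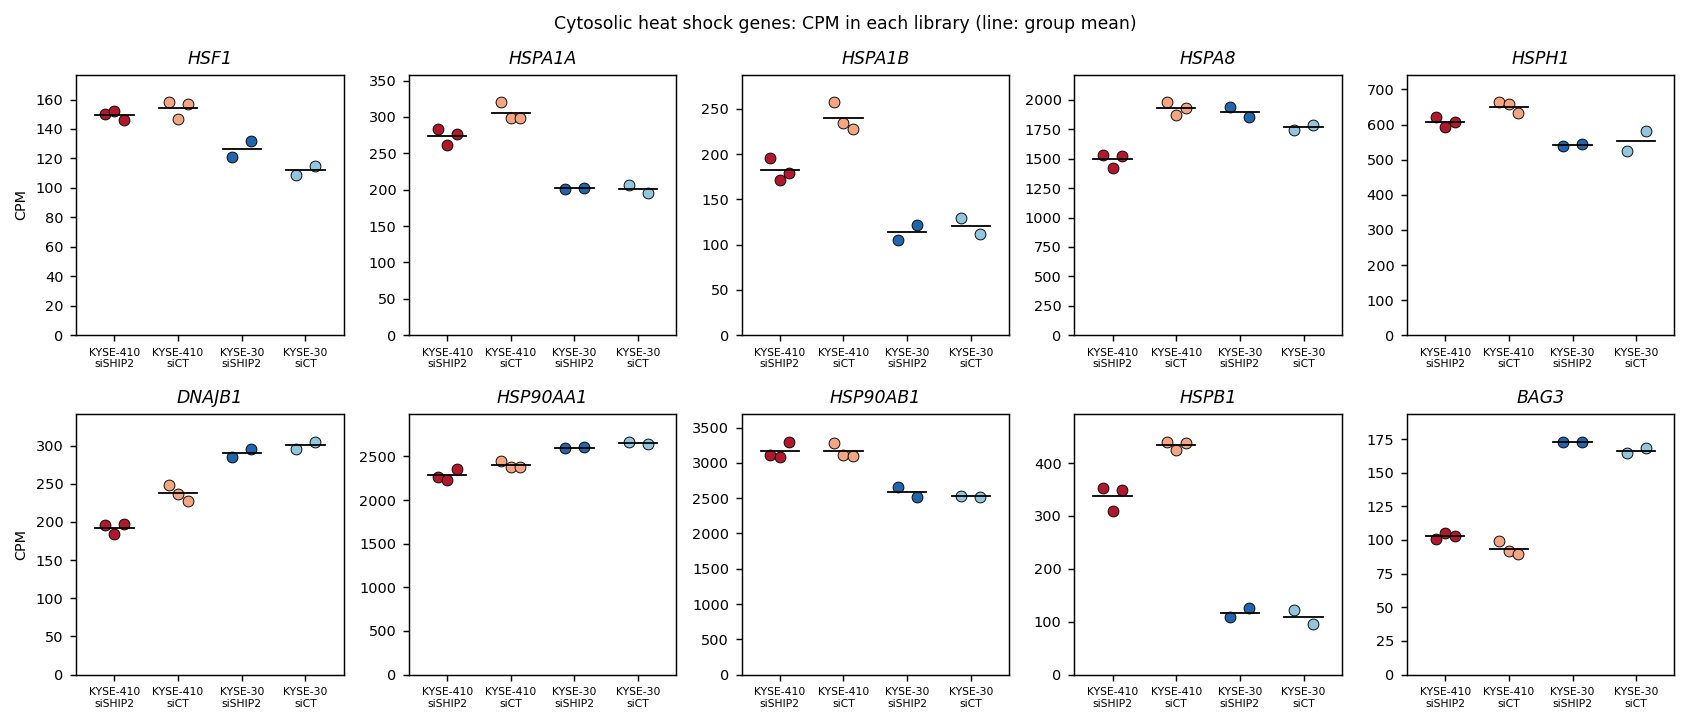
CPM of each of the 10 genes in every library (points) with the group mean (line), on axes that start at 0. In KYSE-410, HSPA8, HSPB1, HSPA1B and DNAJB1 sit lower with siSHIP2 than with siCT in every library, and HSPB1 is higher in every KYSE-410 library than in every KYSE-30 library.

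In KYSE-410, a subset of the cytosolic chaperone genes was lower with siSHIP2 than with siCT. HSPA1A, HSPA1B, HSPA8, DNAJB1 and HSPB1 fell, BAG3 rose, and HSF1, HSPH1, HSP90AA1 and HSP90AB1 did not pass the test (limma on log2(CPM + 1), Benjamini-Hochberg adjusted over all tested genes at 0.05). The 5 lower members stand beside 19.3% of all tested genes called lower in this comparison, the 1 higher beside 30.6% called higher, and the 6 in either direction beside 49.9%. The libraries of the siRNA groups did not overlap for 8 of the 10 members, and for 56.1% of all tested genes. Among the 2545 tested genes with a mean of at least 100 CPM, as all 10 members have, 33.9% were called lower, 30.6% higher and 64.6% in either direction. The median log2 difference of the members was -0.13, against 0.07 over all tested genes and 0 over the genes with a mean of at least 100 CPM.

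HSPA8, the constitutive HSP70, had the smallest p of the members. It stood at 1533, 1425 and 1525 CPM in KYSE-410 with siSHIP2, against 1978, 1875 and 1935 CPM with siCT. All 3 siSHIP2 libraries lay below all 3 siCT libraries, at 77.5% of the siCT mean (log2 difference -0.37, SE 0.05, limma adjusted p = 1.63e-05).

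HSPA1A and HSPA1B, the inducible HSP70 genes, lie beside each other on chromosome 6, at 31815464 to 31817946 and 31827735 to 31830255 (GENCODE 29, GRCh38). They share so much sequence that 71.3% of the windows of 50 bases in the HSPA1A transcript also occur in HSPA1B, and how reads that match both genes were counted is not given in the sources used here. Their levels and the split of reads between them are therefore uncertain. On the same strand, AL671762.1 of GENCODE 29 shares 36.5% of the exon bases of HSPA1B and has no row in the deposited table. HSPA1B stood at 196, 171 and 179 CPM with siSHIP2 and at 257, 234 and 228 CPM with siCT in KYSE-410, without overlap (log2 difference -0.39, SE 0.071, limma adjusted p = 0.000255). HSPA1A stood at 283, 261 and 277 CPM with siSHIP2 and at 319.9, 299 and 299 CPM with siCT. The HSPA1A groups did not overlap either, but the difference was smaller (log2 -0.16, SE 0.048, limma adjusted p = 0.0115). Without siCT replicate 1 or siSHIP2 replicate 2 of KYSE-410 the limma adjusted p of HSPA1A was 0.072 and 0.0604. With the CPM of both genes summed, which does not depend on how counted reads were split, the log2 difference was -0.26 (SE 0.055, limma adjusted p = 0.000989). The CPM ratio of HSPA1B to HSPA1A was 0.666 ± 0.024 with siSHIP2 and 0.783 ± 0.021 with siCT (SD, n = 3 each), and its libraries did not overlap.

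Of the partners of HSP70, the J-domain gene DNAJB1 fell and the nucleotide exchange gene HSPH1 did not pass the test. DNAJB1 stood at 196, 184 and 197 CPM with siSHIP2 and at 249, 237 and 227 CPM with siCT in KYSE-410. Its libraries did not overlap (log2 difference -0.3, SE 0.049, limma adjusted p = 7.69e-05). The opposite-strand genes TECR and MIR639 share 5.75% and 2.67% of the exon bases of DNAJB1, and whether the counting used strand is not given in the sources used here. HSPH1 stood at 622, 592 and 606 CPM with siSHIP2 and at 663, 659 and 632 CPM with siCT. Those libraries did not overlap, but the difference of -0.1 (SE 0.049) had a limma adjusted p of 0.0919 in the deposited scale, and it passed with each other scaling (log2 -0.22 to -0.19, adjusted p = 0.00487 to 0.0105).

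The small heat shock protein gene HSPB1 stood at 353, 309.6 and 349.8 CPM in KYSE-410 with siSHIP2 and at 440.3, 424 and 438 CPM with siCT. Each siSHIP2 library was lower than each siCT library (log2 difference -0.36, SE 0.076, limma adjusted p = 0.000793). BAG3, its link to HSP70, went the other way, at 101, 105 and 103 CPM with siSHIP2 and 99.1, 91.8 and 89.5 CPM with siCT. The libraries did not overlap, but the difference was small (log2 0.14, SE 0.049, limma adjusted p = 0.0245) and depends on the scaling, with log2 0.02 to 0.06 and limma adjusted p of 0.416 to 0.815 under the others. Leaving out siCT replicate 2 or 3, or siSHIP2 replicate 2 or 3, of KYSE-410 gave limma adjusted p of 0.0847, 0.123, 0.0749 and 0.0534 for BAG3.

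Neither cytosolic HSP90 gene passed the test in the deposited scale. HSP90AB1 stood at 3110.3, 3081 and 3300.3 CPM with siSHIP2 and at 3282, 3109.8 and 3096 CPM with siCT in KYSE-410. The ranges overlapped, and the 95% confidence interval of the log2 difference was -0.11 to 0.11 (limma adjusted p = 1.0). HSP90AA1 stood at 2265, 2225 and 2359 CPM with siSHIP2 and at 2448, 2384 and 2382 CPM with siCT, which did not overlap, but its log2 difference of -0.08 had an interval of -0.18 to 0.03 (limma adjusted p = 0.215). It was called lower with TMM and relative log expression scaling (log2 -0.2 and -0.19, limma adjusted p = 0.0122 and 0.0178). The opposite-strand gene WDR20 shares 3.75% of the exon bases of HSP90AA1. The CPM ratio of HSP90AA1 to HSP90AB1 was 0.722 ± 0.0067 with siSHIP2 and 0.761 ± 0.013 with siCT in KYSE-410 (SD, n = 3 each).

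HSF1, the regulator, stood at 150.4, 152 and 146 CPM with siSHIP2 and at 158, 147 and 157 CPM with siCT in KYSE-410. The groups overlapped (log2 difference -0.05, interval -0.15 to 0.06, limma adjusted p = 0.491). Scaled by relative log expression its difference was -0.15 (limma adjusted p = 0.0252), and scaled by the upper quartile it was -0.13 (limma adjusted p = 0.0464). The opposite-strand genes DGAT1 and AC233992.1 share 2.62% and 2.51% of the exon bases of HSF1. These values are of RNA and do not measure whether HSF1 protein was active.

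**Figure D2:**
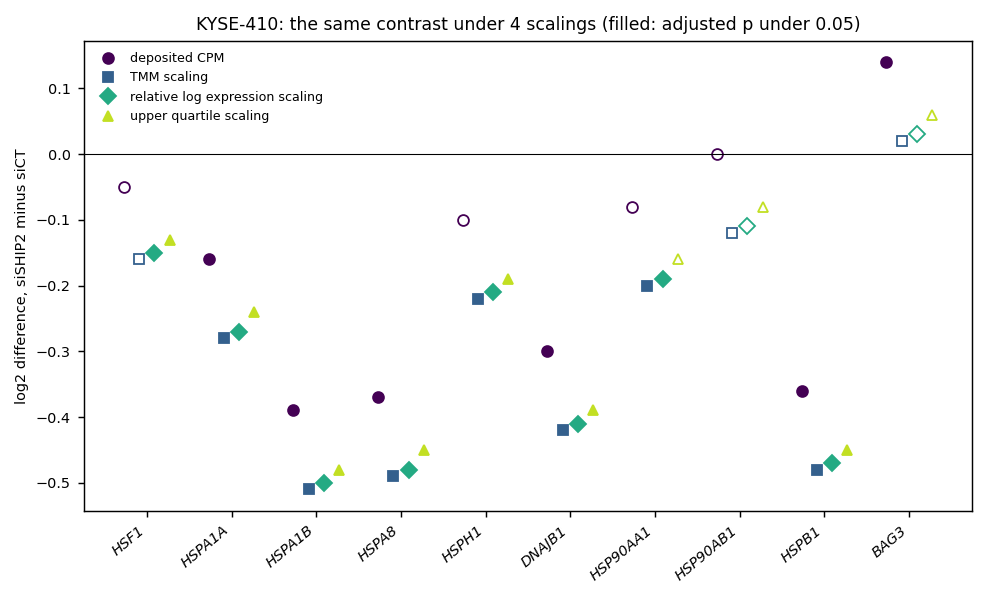
Log2 difference of siSHIP2 minus siCT in KYSE-410 for each gene, in the deposited CPM and after TMM, relative log expression and upper quartile scaling, with filled symbols where the adjusted p was under 0.05. HSPA1A, HSPA1B, HSPA8, DNAJB1 and HSPB1 are filled and below 0 in all 4, while BAG3 is filled only in the deposited CPM.

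Each other scaling divides all genes of a library by the same factor. It therefore moved all members downward by a similar amount in this comparison. TMM factors of the KYSE-410 siSHIP2 libraries were 1.0047 to 1.048 and those of the siCT libraries 0.9392 to 0.9572. Of the genes called in KYSE-410, 61.3% were higher in the deposited CPM, against 43.4% to 48.6% under the other 3 scalings, which shifted the median log2 difference of all genes by -0.08 to -0.06. On log2(CPM + 1) a gene of low CPM shifts less under the same factor, so this median is not the shift of the members. The falls of HSPA8, HSPA1B, DNAJB1 and HSPB1 passed in each alternative computed, with log2 differences of -0.49 to -0.33 for HSPA8, -0.51 to -0.34 for HSPA1B, -0.42 to -0.27 for DNAJB1 and -0.48 to -0.3 for HSPB1. The summed CPM of the 10 genes was 8786 ± 268 with siSHIP2 and 9612 ± 244 with siCT in KYSE-410 (SD, n = 3 each), or 0.879% and 0.961% of the CPM of a library.

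In KYSE-30 none of the 10 genes passed the limma test with siSHIP2, where 2.36% of all tested genes did (0.811% higher and 1.54% lower) and 3.69% of the genes with a mean of at least 100 CPM (1.14% higher and 2.55% lower). The libraries of the siRNA groups did not overlap for 5 of the 10 members, and for 44.6% of all tested genes. The median log2 difference of the members was 0.02, against 0 over all tested genes. At an unadjusted p under 0.05, only HSF1 differed. HSF1 stood at 121 and 132 CPM with siSHIP2 and at 109 and 115 CPM with siCT in KYSE-30, without overlap (log2 difference 0.18, interval 0.04 to 0.31, limma adjusted p = 0.138).

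The genes that fell in KYSE-410 did not pass the test in KYSE-30. HSPA8 stood at 1936 and 1851 CPM with siSHIP2 and at 1744 and 1789 CPM with siCT, where siSHIP2 was the higher (log2 0.1, interval -0.03 to 0.23). HSPA1B stood at 105 and 122 CPM with siSHIP2 and at 129.8 and 112 CPM with siCT, with overlap (log2 -0.09, interval -0.27 to 0.1). HSPA1A stood at 200.4 and 203 CPM with siSHIP2 and at 206 and 195 CPM with siCT, and the siSHIP2 values lay between the siCT values (log2 interval -0.12 to 0.13).

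DNAJB1 stood at 285 and 296 CPM with siSHIP2 and at 296 and 305 CPM with siCT in KYSE-30 (log2 -0.05, interval -0.18 to 0.08). HSPB1 stood at 109 and 125 CPM with siSHIP2 and at 122 and 96.5 CPM with siCT, a wide spread for its level (log2 0.11, interval -0.09 to 0.3). BAG3 stood at 173 and 173 CPM with siSHIP2 and at 165 and 168 CPM with siCT (log2 0.06, interval -0.07 to 0.18).

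For HSPH1 and both HSP90 genes the intervals in KYSE-30 included 0. HSPH1 stood at 538 and 544 CPM with siSHIP2 and at 526 and 582 CPM with siCT (log2 interval -0.16 to 0.09). HSP90AA1 stood at 2594 and 2603 CPM with siSHIP2 and at 2668 and 2644 CPM with siCT (log2 interval -0.16 to 0.09). HSP90AB1 stood at 2656 and 2523 CPM with siSHIP2 and at 2527 and 2524 CPM with siCT (log2 interval -0.1 to 0.17).

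**Figure D3:**
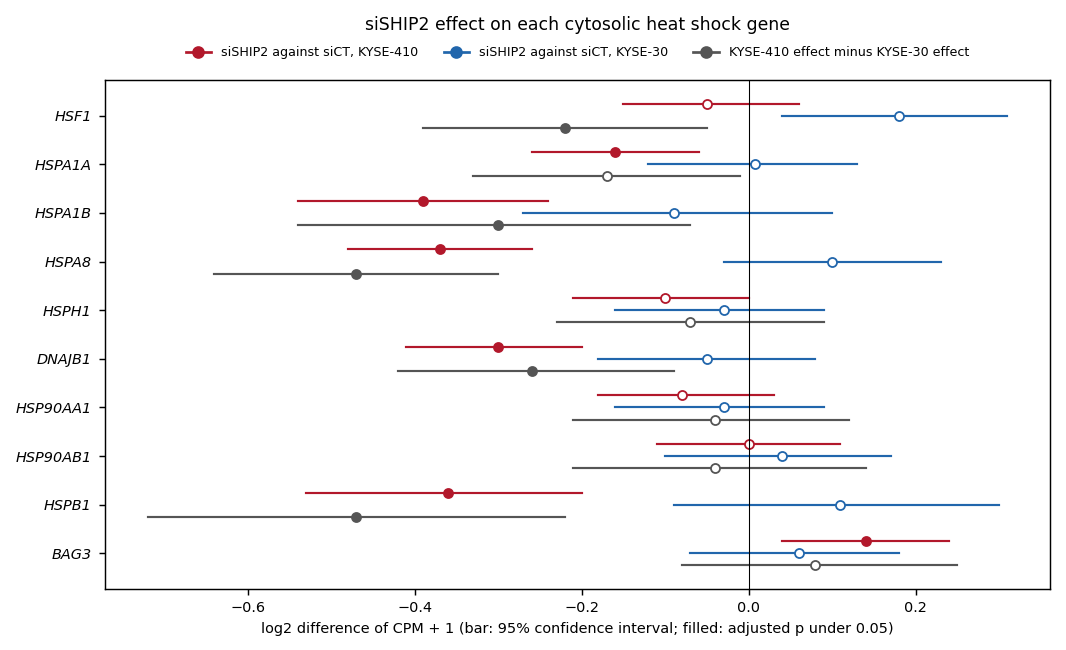
Log2 difference of siSHIP2 against siCT in KYSE-410 (red) and KYSE-30 (blue), and the first minus the second (grey), with 95% confidence intervals and filled points where the adjusted p was under 0.05. The grey points of HSPA8 and HSPB1 lie farthest left, at -0.47 each, and no blue point is filled.

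Whether the siSHIP2 effect differed between the lines was tested with the interaction term of the same fit. It was more negative in KYSE-410 for 5 of the 10 members, HSPA8, HSPB1, DNAJB1, HSF1 and HSPA1B, and for none was it more positive, while 12.9% of all tested genes were called more negative, 19.5% more positive and 32.4% in either direction. HSF1 was called in neither line alone (log2 -0.05 in KYSE-410 and 0.18 in KYSE-30, limma adjusted p = 0.491 and 0.138). Among the genes with a mean of at least 100 CPM, 25.0% were called more negative, 22.7% more positive and 47.7% in either direction. Over all tested genes, positive differences made up 60.3% of these calls in the deposited CPM, but 41.6% to 44.8% under the other scalings. HSPA8 had a difference of -0.47 (SE 0.08, limma adjusted p = 0.000368) and passed in each of the 18 alternatives computed for it (log2 -0.58 to -0.43). HSPB1 also had -0.47 (SE 0.12, limma adjusted p = 0.00684), but without KYSE-30 siCT replicate 2 it was -0.3 and without KYSE-30 siSHIP2 replicate 2 it was -0.37 (limma adjusted p = 0.0568 and 0.0659).

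The other 3 calls of the interaction were closer to the threshold. DNAJB1 had -0.26 (SE 0.077, limma adjusted p = 0.018), with an adjusted p of 0.0537, 0.0614 and 0.0725 without KYSE-410 siCT replicate 1, KYSE-30 siCT replicate 1 or KYSE-30 siSHIP2 replicate 2. HSF1 had -0.22 (SE 0.08, limma adjusted p = 0.0443) and HSPA1B -0.3 (SE 0.113, limma adjusted p = 0.0493). HSF1 did not pass without KYSE-410 siCT replicate 1 or 3, KYSE-410 siSHIP2 replicate 2 or 3, KYSE-30 siCT replicate 1 or KYSE-30 siSHIP2 replicate 2 (limma adjusted p = 0.103, 0.0943, 0.0529, 0.0876, 0.144 and 0.19). HSPA1B did not pass without KYSE-410 siCT replicate 1 or 2, KYSE-410 siSHIP2 replicate 2 or 3, KYSE-30 siCT replicate 2 or KYSE-30 siSHIP2 replicate 2 (limma adjusted p = 0.123, 0.0656, 0.104, 0.0883, 0.255 and 0.269). Nor did either pass with no filter (limma adjusted p = 0.0846 for HSF1 and 0.142 for HSPA1B) or with the replicate number as a block (0.0614 and 0.0646), and HSPA1B did not with a pseudocount of 0.1 (0.0623). HSPA1A, not called in the deposited scale (log2 -0.17, limma adjusted p = 0.106), was called with TMM, relative log expression and upper quartile scaling (log2 -0.28, -0.27 and -0.27, limma adjusted p = 0.038, 0.0329 and 0.0273). For the summed CPM of HSPA1A and HSPA1B the difference was -0.23 (limma adjusted p = 0.0524). INPPL1 itself fell further in KYSE-410, with an interaction of -0.75 (SE 0.105, limma adjusted p = 7.63e-05), so the depth of knockdown moves with these differences, and its part in them was not tested.

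With siCT alone the lines differed in 9 of the 10 members, where 75.9% of all tested genes and 83.7% of the genes with a mean of at least 100 CPM differed. The lines did not overlap for 10 of the 10 members, and for 82.5% of all tested genes. KYSE-410 was higher in 6 members and lower in 3, against 37.2% and 38.7% of all tested genes, and 40.5% and 43.1% of the genes with a mean of at least 100 CPM. HSPB1 differed most, with 440.3, 424 and 438 CPM in KYSE-410 and 122 and 96.5 CPM in KYSE-30 (log2 1.99, SE 0.085, limma adjusted p = 1.54e-12). Of the genes higher in KYSE-410, the inducible HSP70 genes came next, HSPA1B with a log2 difference of 0.98 (SE 0.08, limma adjusted p = 7.23e-09) and HSPA1A with 0.61 (SE 0.054, limma adjusted p = 2.48e-08). HSF1 was higher in KYSE-410 by 0.46, HSP90AB1 by 0.32 and HSPH1 by 0.23.

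BAG3 and DNAJB1 were lower in KYSE-410 than in KYSE-30. BAG3 stood at 99.1, 91.8 and 89.5 CPM in KYSE-410 and at 165 and 168 CPM in KYSE-30 (log2 -0.83, SE 0.054, limma adjusted p = 4.72e-10), and DNAJB1 differed by -0.34. HSP90AA1 was lower by 0.14 (log2 -0.14, limma adjusted p = 0.0244), but its adjusted p was 0.0624, 0.0693, 0.0869 and 0.0643 without KYSE-410 siCT replicate 2 or 3 or KYSE-30 siCT replicate 1 or 2, and 0.563 with TMM scaling. HSPA8 was at the threshold (log2 0.13, limma adjusted p = 0.0506) and was called in 7 of 18 alternatives, among them those without KYSE-410 siSHIP2 replicate 1 or 2 (0.0309 and 0.0452). Its log2 difference was 0.23 with TMM, 0.17 with relative log expression and 0.06 with upper quartile scaling (limma adjusted p = 0.00561, 0.034 and 0.467). The CPM ratio of HSP90AA1 to HSP90AB1 was 0.761 ± 0.013 in KYSE-410 (SD, n = 3) and 1.05 ± 0.0059 in KYSE-30 (SD, n = 2) with siCT.

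**Figure D4:**
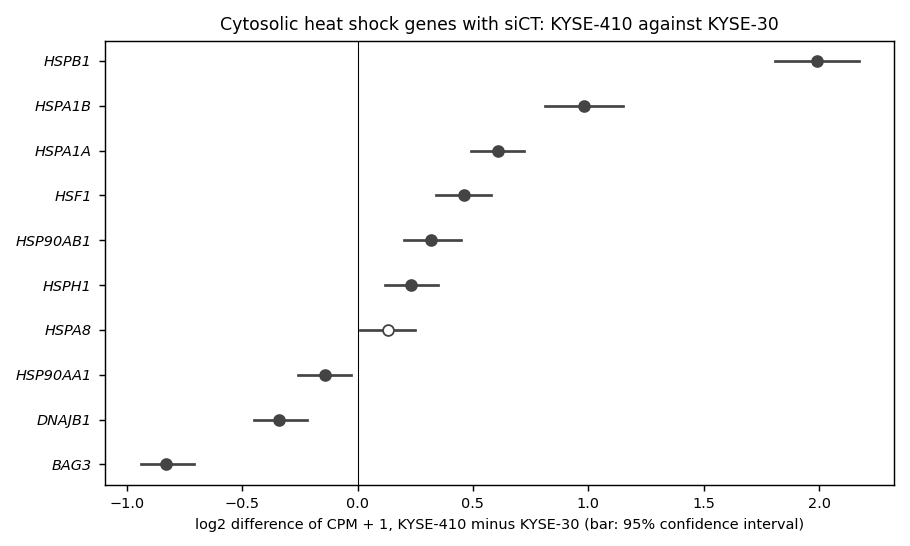
Log2 difference of KYSE-410 minus KYSE-30 with siCT for each gene, with its 95% confidence interval and filled points where the adjusted p was under 0.05. HSPB1 lies at 1.99 and BAG3 at -0.83, and HSPA8 is the open point.

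The order of the 4 groups differed between members. HSPB1 averaged 337 ± 24.0 CPM in KYSE-410 with siSHIP2 and 434 ± 8.77 CPM with siCT, above 117 ± 11.3 CPM in KYSE-30 with siSHIP2 and 109 ± 17.8 CPM with siCT, and the KYSE-30 groups did not differ beyond their spread. BAG3 had the lines in the opposite order, with 103 ± 1.91 CPM in KYSE-410 with siSHIP2 and 93.5 ± 5.01 CPM with siCT, below 173 ± 0.205 CPM in KYSE-30 with siSHIP2 and 166 ± 1.78 CPM with siCT. HSPA8 averaged 1495 ± 60.0 CPM in KYSE-410 with siSHIP2 and 1929 ± 52.0 CPM with siCT, and 1894 ± 59.8 CPM in KYSE-30 with siSHIP2 and 1766 ± 32.0 CPM with siCT. KYSE-410 with siSHIP2 was the lowest of the 4 for HSPA8, and the upper 2, KYSE-30 with siSHIP2 and KYSE-410 with siCT, did not differ beyond their spread. These errors are SDs, with n = 3 in KYSE-410 and n = 2 in KYSE-30.

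Levels of different genes compare only per length, here CPM per kb of merged GENCODE 29 exons. In KYSE-410 with siCT, HSP90AB1 led with 1061 ± 35 CPM per kb, followed by HSP90AA1 with 458 ± 7.1 and HSPA8 with 398 ± 11 (SD, n = 3). HSPB1 had 266 ± 5.4 and HSPA1A 123 ± 4.9 CPM per kb. The lowest were BAG3 with 34.0 ± 1.8 and HSF1 with 29.1 ± 1.1 CPM per kb. In KYSE-30 with siCT the top 3 kept this order, at 847, 506 and 364 CPM per kb, while HSPB1 had 66.8 ± 11 CPM per kb (SD, n = 2), below DNAJB1 at 81.8 and HSPA1A at 80.7. Merged exons include those of rarely used transcripts, so genes with many such exons are understated. Pseudogene rows named after a member held at most 0.258% of the summed CPM of that member and its pseudogenes in any library.

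The likeness of members over the 10 libraries was described within lines. With log2(CPM + 1) centred in each line, Pearson's r was 0.93 between HSPA1A and HSPA1B, which share much sequence, 0.9 between HSPA8 and DNAJB1 and 0.81 between HSPA8 and HSPB1. BAG3 ran against HSPA8 (r = -0.69) and DNAJB1 (-0.7). HSF1 had r of -0.06 to 0.38 with the other members. These values describe libraries that share the siRNA groups, so genes that both fell in KYSE-410 have a high r for that alone.

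Among 11180 other genes with a mean of at least 10 CPM, those most like HSPA1A by this measure were SERPINH1 (r = 0.986), which encodes the collagen chaperone HSP47, ZNF185 (0.97) and THAP11 (0.961). Most like HSPA8 were LTBR (0.998), the readthrough entry SENP3-EIF4A1 (0.995) and RRP9 (0.995). Most like BAG3 were NIT1 (0.98), AC006486.1 (0.968) and MAGEA3 (0.966), and most like HSF1 were GLIS2 (0.934), DBN1 (0.928) and AC069503.2 (0.922). All of these are over the same 10 libraries.

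The wider chaperone network was read from 8 lists of 51 genes, of which 49 were tested. In KYSE-410 with siSHIP2, 16 of the 49 were called higher and 13 lower, with a median log2 difference of 0.05, against 30.6% higher, 19.3% lower and a median of 0.07 over all tested genes. The balance turned over with the scaling, to 8 higher and 18 lower with TMM, 11 higher and 17 lower with relative log expression, and 12 higher and 16 lower with the upper quartile. The balance over all tested genes turned over too, from 6256 higher and 3949 lower to 4005 higher and 5219 lower with TMM. It was 4317 higher and 5319 lower with relative log expression, and 4694 higher and 4970 lower with the upper quartile. In KYSE-30, 0 of the 49 were called higher and 2 lower by limma in the deposited scale, beside 0.811% and 1.54% of all tested genes. The 2 lower calls became 0 with TMM, 1 with relative log expression and 0 with the upper quartile. The small heat shock protein genes HSPB2 and CRYAB were not tested, with HSPB2 at 0 CPM in every library and CRYAB at no more than 0.0167 CPM in any group mean.

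**Figure D5:**
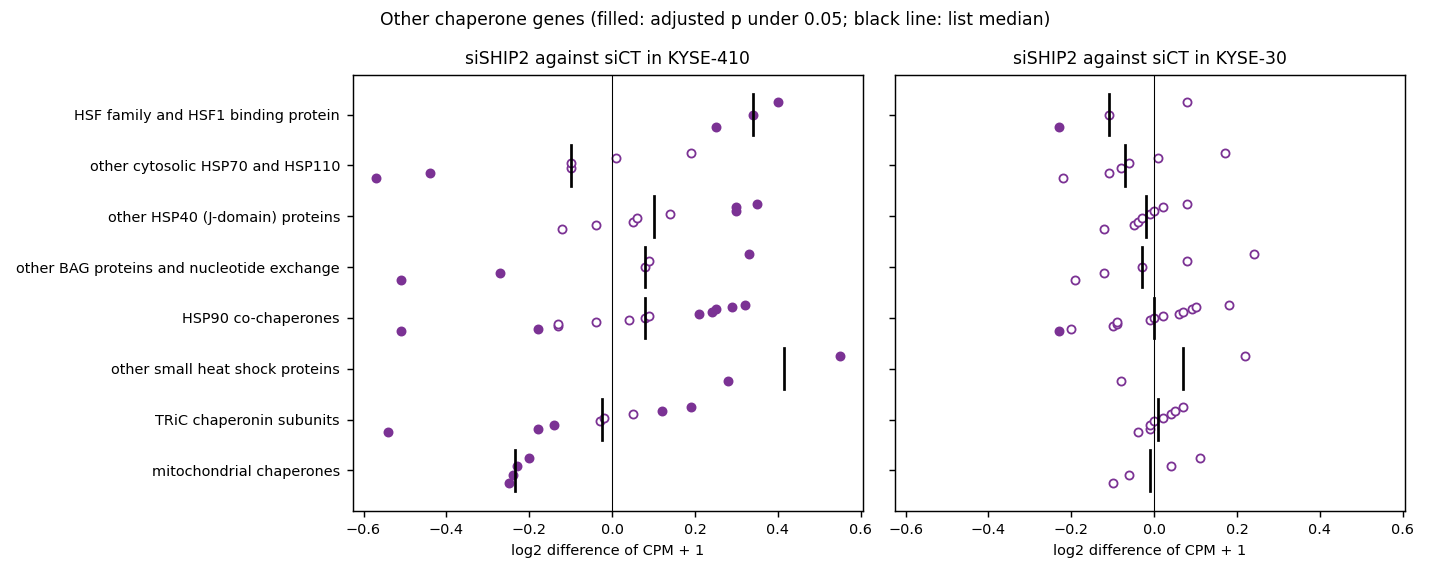
Log2 difference of siSHIP2 against siCT for the tested genes of each of the 8 lists in KYSE-410 (left) and KYSE-30 (right), filled where the adjusted p was under 0.05, with the median of each list as a black line. In KYSE-410 the 4 mitochondrial chaperones are all filled and below 0, and the other lists but those of HSF family and small heat shock proteins span 0.

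All 4 mitochondrial chaperone genes fell in KYSE-410 (median log2 -0.24). Beside them stand 19.3% of all tested genes called lower, and 33.9% of those with a mean of at least 100 CPM. The chaperonin gene HSPD1 (HSP60) stood at 841 ± 20.7 CPM with siSHIP2 and 1002 ± 20.7 CPM with siCT (log2 -0.25, limma adjusted p = 0.000261). Its partner HSPE1 (HSP10) differed by -0.24 and the mitochondrial HSP90 gene TRAP1 by -0.23 (limma adjusted p = 0.000663 and 0.000651). The 4 were called lower with each other scaling too (median -0.36 to -0.32).

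Of 6 other HSP70 and HSP110 genes, 2 fell and none rose in KYSE-410, where 19.3% of all tested genes were called lower and 30.6% higher. HSPA4L, an HSP110 gene, stood at 64.0 ± 8.16 CPM with siSHIP2 and 95.2 ± 2.57 CPM with siCT (log2 -0.57, limma adjusted p = 7.73e-06). HSPA14, which acts at the ribosome, differed by -0.44 (limma adjusted p = 1.14e-05). HSPA6, a strictly heat-inducible HSP70 gene, was low throughout, with 2.23 ± 0.104 CPM with siSHIP2 and 1.83 ± 0.202 CPM with siCT (log2 0.19, limma adjusted p = 0.132).

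Of 8 other J-domain genes, 3 rose and none fell in KYSE-410, namely DNAJB6 (log2 0.3, limma adjusted p = 5.28e-05), DNAJB2 (0.35, 0.000321) and DNAJB4 (0.3, 0.000583). With TMM scaling 2 of the 8 rose and 1 fell. Over all tested genes, 30.6% were called higher and 19.3% lower in KYSE-410 in the deposited scale. Of 5 other BAG and nucleotide exchange genes, BAG2 (-0.51, limma adjusted p = 5.85e-06) and BAG4 (-0.27, 0.0032) fell and HSPBP1 (0.33, 0.000184) rose.

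Of 13 HSP90 co-chaperone genes, 5 rose and 2 fell in KYSE-410, but 2 rose and 4 fell with TMM, 3 rose and 4 fell with relative log expression, and 4 rose and 4 fell in the upper quartile scaling. In the deposited scale 30.6% of all tested genes were called higher and 19.3% lower. Among the 5 co-chaperone genes that rose was FKBP5 at 0.367 CPM with siSHIP2 and 0.117 CPM with siCT, near the floor. In KYSE-30 with siCT it stood at 32.0 CPM. The immunophilin gene FKBP4 fell most, with 372 ± 24.5 CPM with siSHIP2 and 529.6 ± 24.7 CPM with siCT (log2 -0.51, limma adjusted p = 1.4e-06), and CACYBP differed by -0.18 (0.00394). The myosin chaperone gene UNC45A (0.32, limma adjusted p = 2.93e-05), the cyclophilin gene PPID (0.25, 0.000473) and SUGT1 (0.24, 0.00206) rose in the deposited scale. In KYSE-30 ST13, which encodes the HSP70-interacting protein Hip, fell in the deposited scale (log2 -0.23, limma adjusted p = 0.0338), and its limma adjusted p was 0.114 with TMM, 0.0485 with relative log expression and 0.0583 with upper quartile scaling.

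The 8 subunits of the chaperonin TRiC, which folds actin and tubulin, had calls in both directions in KYSE-410. Among tested genes with a mean of at least 100 CPM, 33.9% were called lower and 30.6% higher. CCT7 (log2 -0.54, limma adjusted p = 8.58e-07), CCT5 (-0.18, 0.00503) and CCT3 (-0.14, 0.0169) fell, and CCT8 (0.19, 0.00187) and CCT2 (0.12, 0.0395) rose in the deposited scale, while 0 rose and 3 or 4 fell with the other scalings. Of the other small heat shock protein genes, HSPB8, the usual partner of BAG3, stood at 104 ± 6.89 CPM with siSHIP2 and 70.8 ± 3.62 CPM with siCT (log2 0.55, limma adjusted p = 3.28e-06), the opposite direction to HSPB1. HSPB6 was called too (0.28, 0.0212) at levels under 1 CPM.

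All 3 genes of the HSF family list were called higher in the deposited scale in KYSE-410, with HSF2 at log2 0.4, HSF4 at 0.34 and the HSF1 binding protein gene HSBP1 at 0.25 (limma adjusted p = 0.000322, 0.0234 and 0.000296), and 1 or 2 of the 3 were with the other scalings. Higher calls made up 30.6% of all tested genes in the deposited scale. The libraries of HSF4 overlapped between the siRNA groups of KYSE-410. HSBP1, which encodes a small negative regulator of HSF1, stood at 126 ± 2.92 CPM with siSHIP2 and 106 ± 1.27 CPM with siCT in KYSE-410. In KYSE-30 HSBP1 was called lower in the deposited scale alone (log2 -0.23, limma adjusted p = 0.0463), with limma adjusted p of 0.14, 0.0521 and 0.0599 under TMM, relative log expression and upper quartile scaling. Its siSHIP2 effect differed between the lines by 0.49 (limma adjusted p = 0.00016).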

How the data were processed

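Libraries were made from total RNA with the Ovation Solo RNA-Seq System, per the labels. The submitters' processing notes name STAR 2.5.3a, HTSeq and hg38. The deposited table gives CPM per gene, per the file headers. Whether the counts were adjusted to a common total before that cannot be told from the headers. The values are not counts. Their low values lie on steps of 0.04994 to 0.04997 CPM in every library, and in 3 libraries they skip some multiples of the step. Reads were therefore not recovered and the planned edgeR test on them was not run. limma 3.58.1 in R 4.3.3 was used in its place, as planned for CPM, with an intensity trend on log2(CPM + 1). The filter required 0.5 CPM or more in 2 or more libraries. The model had 4 group means over all 10 libraries, so both lines share 1 estimated spread. Fold changes refer to log2(CPM + 1), which understates changes of low genes, and p-values were adjusted over all tested genes (Benjamini-Hochberg, 0.05). Confidence intervals are limma's 95% intervals without adjustment.

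The members and gene lists were chosen with earlier results of these data known. Named list genes are the called ones with the smallest adjusted p, up to 3 per direction, list and line, and genes alike in pattern are the 3 with the highest r for HSF1, HSPA1A, BAG3 and HSPA8. HSPA6, FKBP5, CRYAB and HSPB2, outside that rule, were named after their values were seen. Positions, exons and transcripts came from GENCODE 29, which holds 58039 of the identifiers. Scaling factors (TMM without weights, relative log expression, upper quartile) were computed from the CPM. The procedure was tested on simulated data. There, rises and falls of known size were planted in equal number and none of these scaling factors was used. That simulation does not bear on how calls depend on the scaling. Tables and plots were made in Python 3.11.15 (pandas 2.3.3, numpy 2.4.6, scipy 1.17.1, matplotlib 3.10.9).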

Additional observations from a re-analysis of the deposited data

Results flagged for a closer look

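The siSHIP2 effect differed between KYSE-410 and KYSE-30, by the interaction term of the limma fit over all 10 libraries, for 5 of the 10 members. That term was called for 32.4% of all tested genes and for 47.7% of those with a mean of at least 100 CPM. The KYSE-410 effect minus the KYSE-30 effect was -0.47 on the log2 scale for HSPA8, -0.47 for HSPB1, -0.3 for HSPA1B, -0.26 for DNAJB1 and -0.22 for HSF1 (limma adjusted p = 0.000368, 0.00684, 0.0493, 0.018 and 0.0443). HSPA8, HSPB1, HSPA1B and DNAJB1 were lower in 3 of 3 KYSE-410 siSHIP2 libraries than in every KYSE-410 siCT library. These groups did not overlap for 56.1% of all tested genes. HSF1 overlapped, with log2 differences of -0.05 in KYSE-410 and 0.18 in KYSE-30, neither of them called. The interaction of HSF1 was called in 10 of 18 alternatives and that of HSPA1B in 8 of 17. No group held the 4 libraries needed to look for single libraries that stand apart.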

How the results depend on the processing

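Of the log2 differences of the 10 members in the 4 comparisons under alternatives, 663 kept direction and side of the threshold, 37 lost the call, 17 gained it and 19 changed sign. None of the 19 was called in either setting. In KYSE-410 HSP90AB1 (0.00051) was -0.12, -0.11 and -0.08 with TMM, relative log expression and upper quartile scaling, and -0.03 to 0.03 with 1 library left out (-0.01, -0.01 and -0.03 without siCT replicate 2, siCT replicate 3 and siSHIP2 replicate 3). In KYSE-30 HSPA1A (0.0082) was -0.0046 with relative log expression and -0.03 summed with HSPA1B. With 1 library left out, the range in KYSE-30 was -0.03 to 0.05 for HSPA1A, -0.19 to 0.02 for HSPA1B, -0.1 to 0.04 for HSPH1, -0.0014 to 0.07 for HSP90AB1 and -0.06 to 0.27 for HSPB1, and for the interaction -0.14 to 0.002 for HSPH1 and -0.07 to 0.0019 for HSP90AB1. The interaction of BAG3 (0.08) was -0.03, -0.01 and -0.02 with TMM, relative log expression and upper quartile scaling.

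Members called numbered 6 in KYSE-410 (4 to 6 with 1 library left out, 5 to 8 otherwise), 0 in KYSE-30 in each setting, and 5 for the interaction (1 to 5 with 1 library left out, 3 with no filter or with the replicate block, 4 with a pseudocount of 0.1 or with HSPA1A and HSPA1B summed, and 6 with each other scaling). Of all tested genes, 49.9% were called in KYSE-410, 2.36% in KYSE-30 and 32.4% for the interaction in the main setting. All-gene calls in KYSE-410 numbered 8614 to 10367 with 1 library left out and 7261 to 10204 otherwise. With TMM, relative log expression and upper quartile scaling, 7, 8 and 7 members were called in KYSE-410. Lower calls among all genes were then 5219, 5319 and 4970, against 3949 in the deposited CPM. For the interaction, calls over all genes numbered 4864 to 7269 with 1 library left out and 5320 to 6626 otherwise. Over all genes, the 482 calls in KYSE-30 became 146 with TMM scaling, 78 with no filter, 112 with only its own groups fitted, 71 with the replicate block, and 15 to 812 with 1 library left out. The lowest counts were 15 without siSHIP2 replicate 1 and 16 without siCT replicate 1 of KYSE-30. With siCT, 9139 genes differed between the lines under a filter of 10 CPM, where fewer genes are tested. Over genes, deviations from the group mean in same-numbered libraries correlated at 0, -0.24 and 0.22 in KYSE-410 and -0.16 in KYSE-30. Not every library correlated best with its own number. Deviations within a group sum to 0, so the KYSE-30 correlations could differ in sign alone. Whether replicate numbers pair the libraries cannot be told from these values. The block could not be fitted between lines, and the interaction has no fit with fewer groups. The cause of these changes was not tested.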
